A study of Mus musculus with 16 samples.

Results

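The genes described here are 10 vitamin transporters and receptors of the mouse intestine, out of 21965 genes in the raw count table. They were chosen by name, and all 10 were found in the table: *Slc23a1* for vitamin C, *Slc46a1* and *Slc19a1* for folate, *Slc19a2* and *Slc19a3* for thiamine, *Slc52a3* for riboflavin, *Slc5a6* for biotin and pantothenate, and *Cubn*, *Amn* and *Tcn2* for cobalamin. RNA came from a segment of terminal ileum of 16 male C57BL/6 mice, with 1 poly(A)-selected, stranded library per mouse, and the values are raw reads per gene. The PF diet was given to 4 WT and 4 *fat-1* mice, and the EtOH diet to 3 WT and 5 *fat-1* mice. All mice were 8 to 10 weeks old at the start and received a liquid diet for 6 weeks. In the EtOH groups ethanol was raised stepwise to 6% (v/v), which was held for the last 3 weeks, and the pair-fed (PF) groups received the same calories with maltose dextrin in place of ethanol. The *fat-1* mice were littermates of the WT mice and were heterozygous for a *C. elegans* transgene that encodes an n3 fatty acid desaturase. The labels write this genotype as Fat1+/-, and it does not concern the mouse gene *Fat1*. Reads of the transgene are not among the counts used here, so the genotype of each library was not checked.

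Vitamins that dissolve in water do not cross the epithelium freely and are taken up by carriers in the brush border of enterocytes, most of which belong to the solute carrier (SLC) families. Vitamin C, folate, thiamine, riboflavin and biotin are absorbed mainly in the upper small intestine, where PCFT (*Slc46a1*) works with the acid surface layer. Cobalamin follows another route: bound to intrinsic factor, it is captured in the terminal ileum by cubam, a receptor built from cubilin (*Cubn*) and its membrane anchor amnionless (*Amn*), and leaves the cell on transcobalamin (*Tcn2*). Chronic alcohol use is a well-known setting of low folate and thiamine, so the comparison of EtOH with PF mice asks how transcripts of these carriers differ in the last part of the small intestine.

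Each library held 8422645 to 11438539 counted reads. Values per mouse are CPM, reads of a gene per 1000000 reads of the library after scaling by the trimmed mean of M-values (TMM). Differences are log2 fold changes with their standard errors (SE) from 1 edgeR quasi-likelihood fit of all 16 libraries over 13811 genes, and a gene with a Benjamini-Hochberg adjusted p of 0.05 or less is called a DEG. The libraries were checked with marker genes of gut regions, chosen with earlier results of these data known. The 6 genes of ileal bile acid handling summed to 439 to 8304 CPM over all mice, with the lowest sums in *fat-1* PF 2 and 4. The 10 markers of the proximal small intestine summed to 2090 to 15892 CPM in WT PF, to 11224 to 54302 CPM in *fat-1* PF, to 396 to 461 CPM in WT EtOH and to 23.2 to 546 CPM in *fat-1* EtOH mice. *Fat-1* PF 2 and 4 held the highest sums and *fat-1* EtOH 3 and 4 the lowest. The 10 large intestine markers, of which 1 to 6 were at 0 in each library, summed to 189 to 421 CPM in the PF mice, but to 5212 CPM in WT EtOH 2, 12378 CPM in *fat-1* EtOH 3 and 13431 CPM in *fat-1* EtOH 4, against 395 to 539 CPM in the other EtOH mice. Smooth muscle markers summed to 953 to 1486 CPM in PF and to 1919 to 4172 CPM in EtOH mice. PF libraries are numbered 1 to 8 and EtOH libraries 9 to 16, so the order of the libraries and the diet cannot be told apart. In bulk tissue, fewer cells of a type and less RNA per cell cannot be told apart either.

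With EtOH, *Slc23a1* almost disappeared in both genotypes, and in *fat-1* mice *Slc46a1*, *Slc19a1* and *Amn* fell as well, and *Slc19a3* was called lower. In WT mice 1 of the 10 genes was a DEG, *Slc23a1*, where 0.0796% of all genes tested were called, and 2 had an unadjusted p under 0.05 (14.1% of all genes). In *fat-1* mice 5 of 10 were called, all lower, where 37.4% of all genes were called and 18.8% were called lower. On the mean of both genotypes the count was again 5, the same 5 genes, with 35.9% of all genes called. The median log2 fold change of the 10 genes was −0.49 in WT and −0.89 in *fat-1* mice, against 0.01 and 0.05 over all genes. *Slc23a1* passed the filter on low counts mainly through PF mice, and *Slc19a3* only through 3 *fat-1* PF mice, since no other library had 10 or more reads of it. These 2 could therefore hardly be tested without being higher in PF mice, and the count of 5 and the medians include both. Over the other 8 genes the median was −0.21 in WT and −0.62 in *fat-1* mice. Without *fat-1* PF 2 and 4 the count in *fat-1* mice was 2 (*Slc23a1* and *Slc46a1*), where 13.9% of all genes were called, and without *fat-1* EtOH 3 and 4 it was 6, with *Cubn* added as higher, where 30.8% were called. These sets of libraries were chosen for leaving out after the values were seen, for their regional markers and for the levels of these genes.

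**Figure D1:**
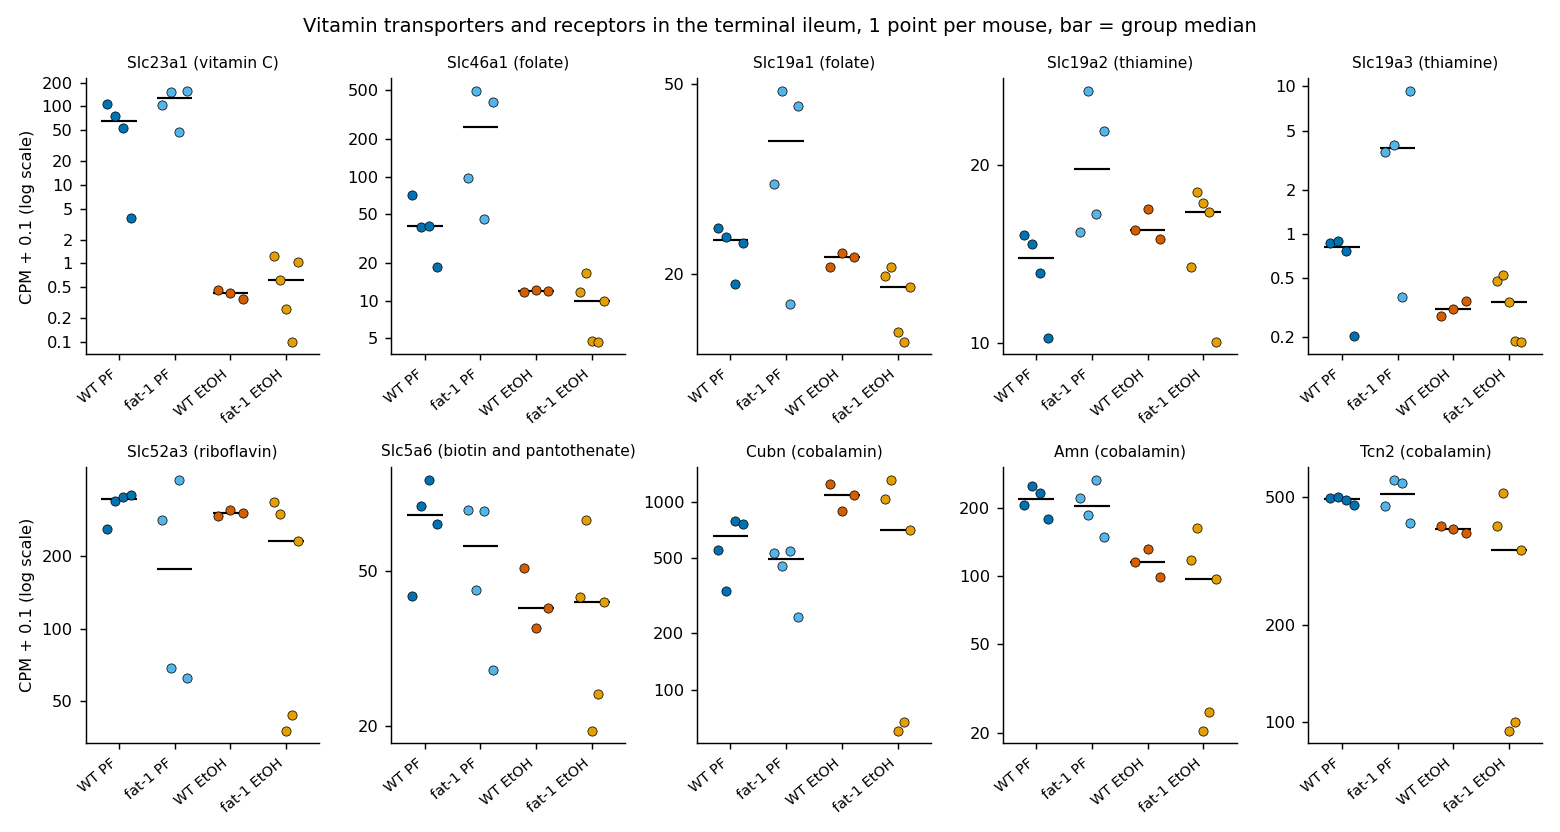
CPM + 0.1 on a log axis for the 10 genes, with 1 point per mouse in each of the 4 groups and a bar at the group median (n = 4, 4, 3 and 5 from left to right). *Slc23a1* lies at 3.74 CPM or more in every PF mouse and at 1.14 CPM or less in every EtOH mouse, and *Slc52a3*, *Cubn*, *Amn* and *Tcn2* are low in 2 of the 5 *fat-1* EtOH mice.

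Per kilobase of exon, the level of *Tcn2* was the highest of the 10 in every group, at 225 ± 5.8 CPM per kb (SD, n = 4) in WT PF and 182 ± 4.29 (n = 3) in WT EtOH mice. *Slc19a3* was the lowest in every group, at 0.19 ± 0.105 CPM per kb in WT PF mice. In WT PF mice *Slc52a3* and *Amn* followed *Tcn2* at 119 ± 17 and 118 ± 16.9 CPM per kb, with overlapping ranges, and *Cubn* came next at 40.7 ± 14 CPM per kb. *Cubn*, *Slc23a1*, *Slc5a6* and *Slc46a1*, at 40.7 to 13.7 CPM per kb, each overlapped the next in this order. In WT EtOH mice *Slc23a1* stood at 0.0952 ± 0.0165 CPM per kb and its range overlapped that of *Slc19a3*, at 0.0697 ± 0.012. *Slc46a1* ranked 3 in *fat-1* PF mice, at 84 ± 71.4 CPM per kb, and 8 in both EtOH groups, at 3.86 ± 0.0879 in WT and 3.05 ± 1.64 in *fat-1* mice. The group means of the riboflavin and cobalamin genes stood above those of the thiamine carriers in all 4 groups, while *Slc23a1* went from rank 5 in both PF groups to rank 9 in both EtOH groups.

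*Slc23a1* (ENSMUSG00000024354; mm10 chr18:35614604-35627244, minus strand) encodes SVCT1, which carries vitamin C with sodium across the brush border. Mice synthesize vitamin C themselves, and the carrier recovers it from the diet. Its level was 106, 75.4, 53.6 and 3.74 CPM in WT PF mice 1 to 4, and 106, 152, 47.2 and 157 CPM in *fat-1* PF mice 1 to 4. In WT EtOH mice it was 0.358, 0.315 and 0.252 CPM, or 10 reads over 3 libraries. In *fat-1* EtOH mice 1 to 5 it was 1.14, 0.51, 0.164, 0 and 0.941 CPM, or 31 reads over 5 libraries. PF and EtOH mice did not overlap in either genotype, and WT PF 4 stood closest to the EtOH mice.

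The mean CPM was 194-fold lower in WT EtOH than in WT PF mice and 209.6-fold lower in *fat-1* EtOH than in *fat-1* PF mice. From counting error alone, the reads behind the EtOH means allow 0.147 to 0.564 CPM in WT and 0.367 to 0.767 CPM in *fat-1* mice (exact 95% Poisson intervals). The log2 fold change was −7.55 (SE 1.16, adjusted p = 0.0388) in WT and −7.70 (SE 0.87, adjusted p = 2.1e-04) in *fat-1* mice. Every PF mouse had 10 or more reads of *Slc23a1*, but only 0 of 3 WT EtOH and 2 of 5 *fat-1* EtOH mice did. The filter on low counts thus favoured this direction, and the adjusted p-values are no separate support for it. Permuting the mice between diets (exact test, two-sided, on log2(CPM + 0.5)) gave p = 0.0571 in WT mice (n = 4 and 3, smallest p reachable 0.0286) and p = 0.00794 in *fat-1* mice (n = 4 and 5, the smallest reachable), without adjustment over the 40 comparisons run in this way. The call in WT mice was lost when any of WT PF 1, WT PF 2, WT PF 3, *fat-1* PF 1, *fat-1* PF 4, the 3 WT EtOH mice or *fat-1* EtOH 1 was left out, with adjusted p up to 0.418 and a log2 fold change of −7.94 to −7.10. It was also lost in the fit of the WT groups alone (−7.53, adjusted p = 0.0539) and under voom (−7.11, adjusted p = 0.0589), and it held under 6 of 11 alternatives. In *fat-1* mice it held without each mouse in turn, at −8.10 to −7.38. The 0 in *fat-1* EtOH 4 allows up to 3 reads, or 0.268 CPM.

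*Slc46a1* (ENSMUSG00000020829; chr11:78465697-78472059, plus strand) encodes the proton-coupled folate transporter PCFT. Its level was 71.0, 39.5, 39.99 and 18.6 CPM in WT PF mice, and 97.7, 489.9, 45.4 and 401 CPM in *fat-1* PF mice. In WT EtOH mice it was 11.6, 12.2 and 11.8 CPM, and in *fat-1* EtOH mice 11.6, 16.5, 4.59, 4.55 and 9.75 CPM. No EtOH mouse reached the PF mice of its genotype, and *fat-1* PF 2 and 4 stood far above the other 14 mice. The log2 fold change with EtOH was −4.78 (SE 0.66, adjusted p = 3.2e-04) in *fat-1* mice and −1.83 (SE 0.72, adjusted p = 0.287) in WT mice. The responses of the genotypes differed by −2.95 (SE 0.92), which did not pass the adjustment over all genes (adjusted p = 0.595). Without *fat-1* PF 2 and 4 the gene was still a DEG in *fat-1* mice, at −2.92 (adjusted p = 0.00788), and the difference between the genotypes was not called. In WT mice it was a DEG under limma voom (−1.88, adjusted p = 0.0279).

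*Slc19a1* (ENSMUSG00000001436; chr10:77032241-77061002, plus strand) encodes the reduced folate carrier, an anion exchanger found in most tissues. The WT groups overlapped, with 24.9, 23.9, 19.0 and 23.2 CPM in PF and 20.6, 22.0 and 21.6 CPM in EtOH mice. *Fat-1* PF mice held 30.7, 48.1, 17.2 and 44.8 CPM and *fat-1* EtOH mice 19.8, 20.7, 15.1, 14.4 and 18.7 CPM. Again *fat-1* PF 2 and 4 were the highest, while *fat-1* PF 3 lay within the range of the EtOH mice. With EtOH the gene changed by −0.99 (SE 0.22, adjusted p = 0.00403) in *fat-1* and −0.09 (SE 0.26, adjusted p = 0.907) in WT mice, and the difference between them was −0.90 (SE 0.34, adjusted p = 0.595). Without *fat-1* PF 2 and 4 the change in *fat-1* mice was −0.44 and was no longer called (adjusted p = 0.151).

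*Slc19a3* (ENSMUSG00000038496; chr1:83012523-83038448, minus strand) encodes the thiamine transporter THTR2 of the brush border. It was close to the limit of detection, with 7, 7, 6 and 1 reads in WT PF, 33, 28, 2 and 75 in *fat-1* PF, 2, 2 and 3 in WT EtOH and 4, 5, 3, 1 and 1 in *fat-1* EtOH mice. In CPM, *fat-1* PF mice held 3.50, 3.93, 0.273 and 9.20, and no other mouse was above 0.792. *Fat-1* PF 3 lay among the EtOH mice. Since the gene passed the filter only through *fat-1* PF mice, a lower value with EtOH was set by the filter in *fat-1* mice, and its fold change is given as a description. It was −4.05 (SE 0.72) in *fat-1* and −1.38 (SE 1.00, adjusted p = 0.551) in WT mice. Without *fat-1* PF 2 and 4 the gene did not pass the filter and had no test.

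*Slc19a2* (ENSMUSG00000040918; chr1:164249046-164265385, plus strand) encodes THTR1, the related thiamine transporter expressed in most tissues. Its level was 15.1, 14.6, 12.995 and 10.1 CPM in WT PF, 15.3, 26.5, 16.4 and 22.7 CPM in *fat-1* PF, 15.4, 16.7 and 14.9 CPM in WT EtOH, and 13.3, 17.9, 17.1, 16.5 and 9.92 CPM in *fat-1* EtOH mice. EtOH and PF mice overlapped in both genotypes. On the log2 scale the difference with EtOH was 0.25 (SE 0.22, adjusted p = 0.643) in WT and −0.43 (SE 0.19, adjusted p = 0.0911) in *fat-1* mice. THTR1 and THTR2 thus differed in level: *Slc19a3* was below *Slc19a2* in every one of the 16 libraries.

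The upstream sequences of *Slc46a1* and *Slc19a3* are shown because both serve vitamins taken up in the upper intestine and were highest in the same PF mice. Across the 16 mice, Spearman's rho was 0.824 between them and 0.903 between *Slc46a1* and *Slc23a1*, and it was similar between *Slc46a1* and *Amn* (0.797) or *Tcn2* (0.779). These are descriptions over mice that share groups and regional markers, and *Slc19a3* had 1 to 7 reads in 13 of them. Each sequence is the 250 bases before the RefSeq transcription start (GRCm38.p6), written along the strand of the gene, with CG dinucleotides in capitals.

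Slc46a1 (chr11:78465451-78465700, plus strand): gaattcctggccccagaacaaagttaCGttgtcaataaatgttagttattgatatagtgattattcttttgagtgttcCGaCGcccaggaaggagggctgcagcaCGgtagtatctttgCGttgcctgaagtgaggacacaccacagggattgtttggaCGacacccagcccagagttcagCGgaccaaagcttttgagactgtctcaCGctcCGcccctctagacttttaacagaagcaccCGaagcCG
Slc19a3 (chr1:83038449-83038698, minus strand): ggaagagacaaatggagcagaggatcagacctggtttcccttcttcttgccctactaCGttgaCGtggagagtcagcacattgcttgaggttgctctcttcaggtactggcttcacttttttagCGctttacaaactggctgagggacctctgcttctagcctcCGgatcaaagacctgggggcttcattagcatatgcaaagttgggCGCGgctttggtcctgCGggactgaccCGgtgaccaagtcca

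The *Slc46a1* sequence had 49.6% G and C and 11 CG dinucleotides, and that of *Slc19a3* 52.8% and 8, beside medians of 52.4% and 6 over 32851 mouse promoters of this length. The GATA factor cores AGATAA (in 9.99% of all promoters) and also TGATAA (7.94%), the HNF1 core GTTAAT (6.43%), the CDX core TTTATG (10.8%) and the box TATAAA (12.4%) were searched on both strands. None was found in these 2 sequences or in the other 7 upstream sequences read, which cover 7 of the 10 genes in all. No sequence of *Slc23a1*, *Slc52a3* or *Tcn2* was searched.

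*Slc52a3* (ENSMUSG00000027463; chr2:151996511-152009258, plus strand) encodes RFVT3, the riboflavin transporter of the apical membrane. Its level was 259.8, 339.6, 355 and 362 CPM in WT PF mice and 295, 312 and 304 CPM in WT EtOH mice. *Fat-1* PF mice held 285, 68.5, 418 and 62.0 CPM, with the low values in mice 2 and 4. *Fat-1* EtOH mice held 338, 302, 37.4, 43.4 and 231 CPM, with the low values in mice 3 and 4. The 12 other mice lay between 231 and 418 CPM. EtOH and PF mice differed by −0.12 (SE 0.74) in WT and −0.13 (SE 0.65) in *fat-1* mice on the log2 scale, and neither was called (adjusted p = 0.959 and 0.888). Its sign in *fat-1* mice turned when *fat-1* EtOH 3 and 4 were left out (0.50, adjusted p = 0.495).

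*Slc5a6* (ENSMUSG00000006641; chr5:31036036-31048924, minus strand) encodes SMVT, a sodium-dependent carrier shared by biotin, pantothenate and lipoate. Of its exon bases 9.92% overlap *Atraid* on the other strand, and whether the counting used strand is not given in the sources used here. Its level was 43.2, 73.5, 86.1 and 66.3 CPM in WT PF, 71.9, 44.8, 71.5 and 27.7 CPM in *fat-1* PF, 50.9, 35.6 and 40.2 CPM in WT EtOH, and 43.0, 68.0, 19.4, 24.1 and 41.7 CPM in *fat-1* EtOH mice. The groups overlapped in both genotypes. With EtOH the log2 fold change was −0.67 (SE 0.40, adjusted p = 0.463) in WT and −0.46 (SE 0.35, adjusted p = 0.310) in *fat-1* mice, and −0.57 (SE 0.27, adjusted p = 0.110) on their mean.

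Of the cobalamin genes, *Amn* was called in *fat-1* mice with EtOH, and *Cubn* and *Tcn2* in neither genotype. *Cubn* (ENSMUSG00000026726; chr2:13276338-13491813, minus strand), the large extracellular receptor that binds intrinsic factor with cobalamin, stood at 552, 335, 785 and 759 CPM in WT PF and at 1239, 892 and 1087 CPM in WT EtOH mice. All WT EtOH mice were above all WT PF mice, but the difference of 0.82 (SE 0.79) was not called (adjusted p = 0.670), and the exact permutation p was 0.0857 (n = 4 and 3). *Fat-1* PF mice held 534, 455, 546 and 243 CPM and *fat-1* EtOH mice 1037, 1307, 60.5, 66.9 and 708 CPM. Mice 1, 2 and 5 of the *fat-1* EtOH group were above every *fat-1* PF mouse, and mice 3 and 4 were below every mouse of the other groups. The fitted log2 fold change in *fat-1* mice was 0.52 (SE 0.71, adjusted p = 0.581), while the difference of the mean log2(CPM + 0.5) was −0.36. Without *fat-1* EtOH 3 and 4 it was 1.22 (SE 0.32) and *Cubn* was a DEG (adjusted p = 0.0141). When *fat-1* PF 2 and 4 were left out as well, it was 0.93 and not called (adjusted p = 0.0950). Of the *Cubn* exon bases 2.46% overlap *Gm13270* on the other strand.

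*Amn* (ENSMUSG00000021278; chr12:111271095-111276426, plus strand), which anchors cubilin and brings it to the surface, was lower with EtOH. Its level was 207, 250.4, 233 and 179 CPM in WT PF and 116, 131 and 98.7 CPM in WT EtOH mice. *Fat-1* PF mice held 222, 187, 268 and 149 CPM and *fat-1* EtOH mice 117, 164, 20.4, 24.8 and 96.7 CPM. The WT groups did not overlap (exact permutation p = 0.0286, n = 4 and 3, the smallest reachable), and in *fat-1* mice only EtOH mouse 2 reached the PF range. Its log2 fold change was −0.92 (SE 0.54, adjusted p = 0.456) in WT and −1.29 (SE 0.47, adjusted p = 0.0431) in *fat-1* mice. When mice were left out singly the call in *fat-1* mice was lost for 14 of 16, with adjusted p up to 0.106, so it lies at the threshold. Without *fat-1* EtOH 3 and 4 *Amn* was a DEG in *fat-1* mice at −0.68 (adjusted p = 0.0296) and in WT mice at −0.91 (adjusted p = 0.0491).

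*Tcn2* (ENSMUSG00000020432; chr11:3917192-3932159, minus strand) encodes transcobalamin, the plasma carrier to which cobalamin is handed on. WT PF mice held 498, 499, 489.8 and 472 CPM and WT EtOH mice 405, 398 and 387 CPM. These narrow groups did not overlap (exact permutation p = 0.0286, n = 4 and 3), yet the log2 fold change of −0.30 (SE 0.45) was not called (adjusted p = 0.801). In the fit of the WT groups alone it was −0.29 (SE 0.08) and still not called (adjusted p = 0.0556). *Fat-1* PF mice held 471, 567, 555 and 416 CPM and *fat-1* EtOH mice 407, 514, 93.9, 99.6 and 342 CPM. Their difference on the log2 scale was −0.79 (SE 0.39, adjusted p = 0.128), and mice 3 and 4 were again the lowest.

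In WT mice *Cubn* was thus higher and *Amn* lower in every EtOH mouse than in any PF mouse, and the ratio of *Cubn* to *Amn* shows this in each mouse. In reads per kilobase of exon it was 0.329, 0.165, 0.415 and 0.522 in WT PF, 0.297, 0.299, 0.251 and 0.202 in *fat-1* PF mice. With EtOH it was 1.32, 0.839 and 1.36 in WT, and 1.09, 0.983, 0.366, 0.333 and 0.904 in *fat-1* mice. EtOH mice were above PF mice of the same genotype without overlap, also in *fat-1* EtOH 3 and 4. The ratio was formed after the values were seen and is given without a test.

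**Figure D2:**
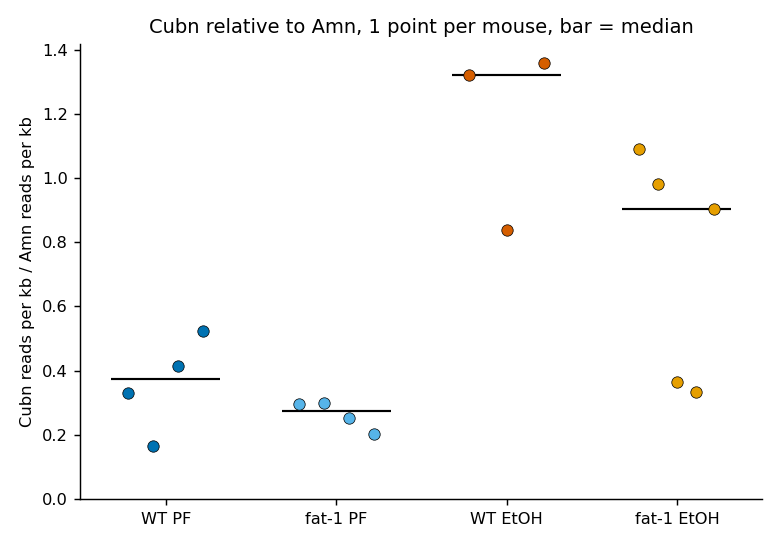
Ratio of *Cubn* to *Amn* reads per kilobase of exon on a linear axis from 0, with 1 point per mouse and a bar at the group median. PF mice lie between 0.165 and 0.522, WT EtOH mice between 0.839 and 1.36, and *fat-1* EtOH mice between 0.333 and 1.09.

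The upstream sequences of this pair are shown because they serve 1 receptor and differ in composition, with CG dinucleotides again in capitals.

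Cubn (chr2:13491877-13492126, minus strand): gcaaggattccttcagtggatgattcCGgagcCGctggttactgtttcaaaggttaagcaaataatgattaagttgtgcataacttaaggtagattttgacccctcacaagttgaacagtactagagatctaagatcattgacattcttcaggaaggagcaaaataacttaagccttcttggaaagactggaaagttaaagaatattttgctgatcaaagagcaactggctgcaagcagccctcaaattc
Amn (chr12:111270846-111271095, plus strand): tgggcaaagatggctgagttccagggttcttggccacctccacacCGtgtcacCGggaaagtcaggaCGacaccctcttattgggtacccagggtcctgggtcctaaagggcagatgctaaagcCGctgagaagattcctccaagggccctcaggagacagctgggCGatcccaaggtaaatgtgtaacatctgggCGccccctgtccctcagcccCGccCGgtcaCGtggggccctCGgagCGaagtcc

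The *Cubn* sequence had 39.6% G and C and 2 CG dinucleotides, and that of *Amn* 61.2% and 11, on either side of the medians of all promoters.

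Across the 10 genes, 5 had WT groups that did not overlap (4 lower and 1 higher with EtOH, where 24.3% of all genes did not overlap), and 2 had *fat-1* groups that did not overlap (*Slc23a1* and *Slc46a1*, 24.0% of all genes).

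**Figure D3:**
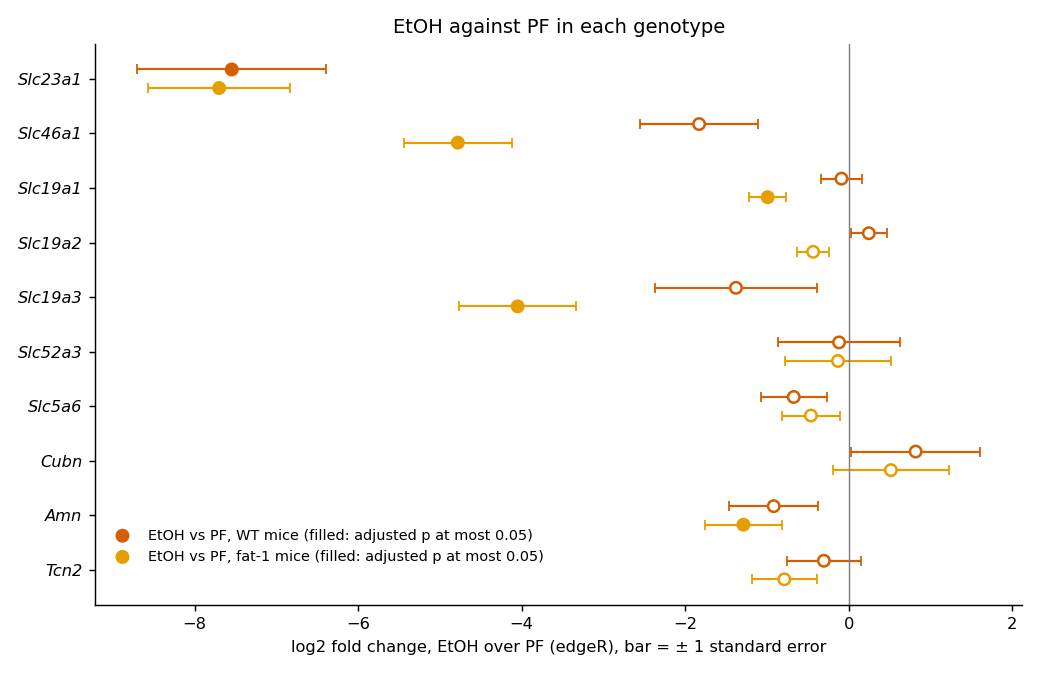
Log2 fold change of EtOH over PF from the edgeR fit for the 10 genes in WT mice (dark orange, n = 4 PF and 3 EtOH) and *fat-1* mice (light orange, n = 4 PF and 5 EtOH), with bars of 1 SE and filled points for an adjusted p of 0.05 or less. *Slc23a1* is called in both genotypes, at −7.55 and −7.70, and *Slc46a1*, *Slc19a1*, *Slc19a3* and *Amn* in *fat-1* mice. The filter on low counts set the direction of *Slc19a3* in *fat-1* mice and favoured that of *Slc23a1* in both genotypes.

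The highest and lowest values of several genes lay in the mice whose regional markers stood apart. *Slc23a1* and *Slc46a1* were highest, and *Slc52a3* was low, in *fat-1* PF 2 and 4, which held 54302 and 53226 CPM of proximal markers and 491 and 439 CPM of ileal bile acid genes. *Slc52a3*, *Cubn*, *Amn* and *Tcn2* were lowest in *fat-1* EtOH 3 and 4, which held 12378 and 13431 CPM of large intestine markers. *Slc46a1*, *Slc19a1* and *Slc5a6* were also lowest there, and *Slc23a1* had 2 and 0 reads, so these low values were not particular to the riboflavin and cobalamin genes. These mice also held the lowest sums of 9 general epithelium markers (8565 and 8544 CPM, against 10825 to 17406 CPM in the other 14) and the highest of smooth muscle markers (4004 and 4172 CPM). In these 2 mice the proximal markers summed to 23.2 and 29.7 CPM, and 1 of the 10 was at 0 in mouse 3. In WT EtOH 2, with 5212 CPM of large intestine markers, *Slc52a3*, *Cubn*, *Amn* and *Tcn2* stood beside the other WT EtOH mice (312, 892, 131 and 398 CPM). All 10 proximal markers were called lower with EtOH in *fat-1* and 3 in WT mice (9 by DESeq2 and by voom). The paper lists *Lct*, *Gata4*, *Fabp1*, *Slc2a2*, *Apoa4*, *Cyp2b10*, *Leap2* and *Enpp3* among the genes most lowered by EtOH in these same mice. It lists *Car1* and *Slc37a2* of the large intestine markers among those most raised. The calls of these markers are therefore not separate evidence. Of 8 large intestine markers tested, 6 were called higher in *fat-1* mice (5 by DESeq2, 2 by voom, 1 of 6 tested without *fat-1* EtOH 3 and 4, and 0 of 9 without *fat-1* PF 2 and 4) and none in WT mice (2 with p under 0.05 by edgeR, 1 called by DESeq2 and 0 by voom). All 7 smooth muscle markers were called higher in *fat-1* and none in WT mice (6 with p under 0.05, 1 called by DESeq2 and 7 by voom). With the libraries WT EtOH 2 and *fat-1* EtOH 3 and 4 left out, *Slc23a1* changed by −7.56 in WT (adjusted p = 0.0595) and by −7.02 in *fat-1* mice (adjusted p = 0.0022), and *Slc46a1* by −4.31 in *fat-1* mice (adjusted p = 0.00439). The part of regional and epithelial composition in these differences was not tested.

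**Figure D4:**
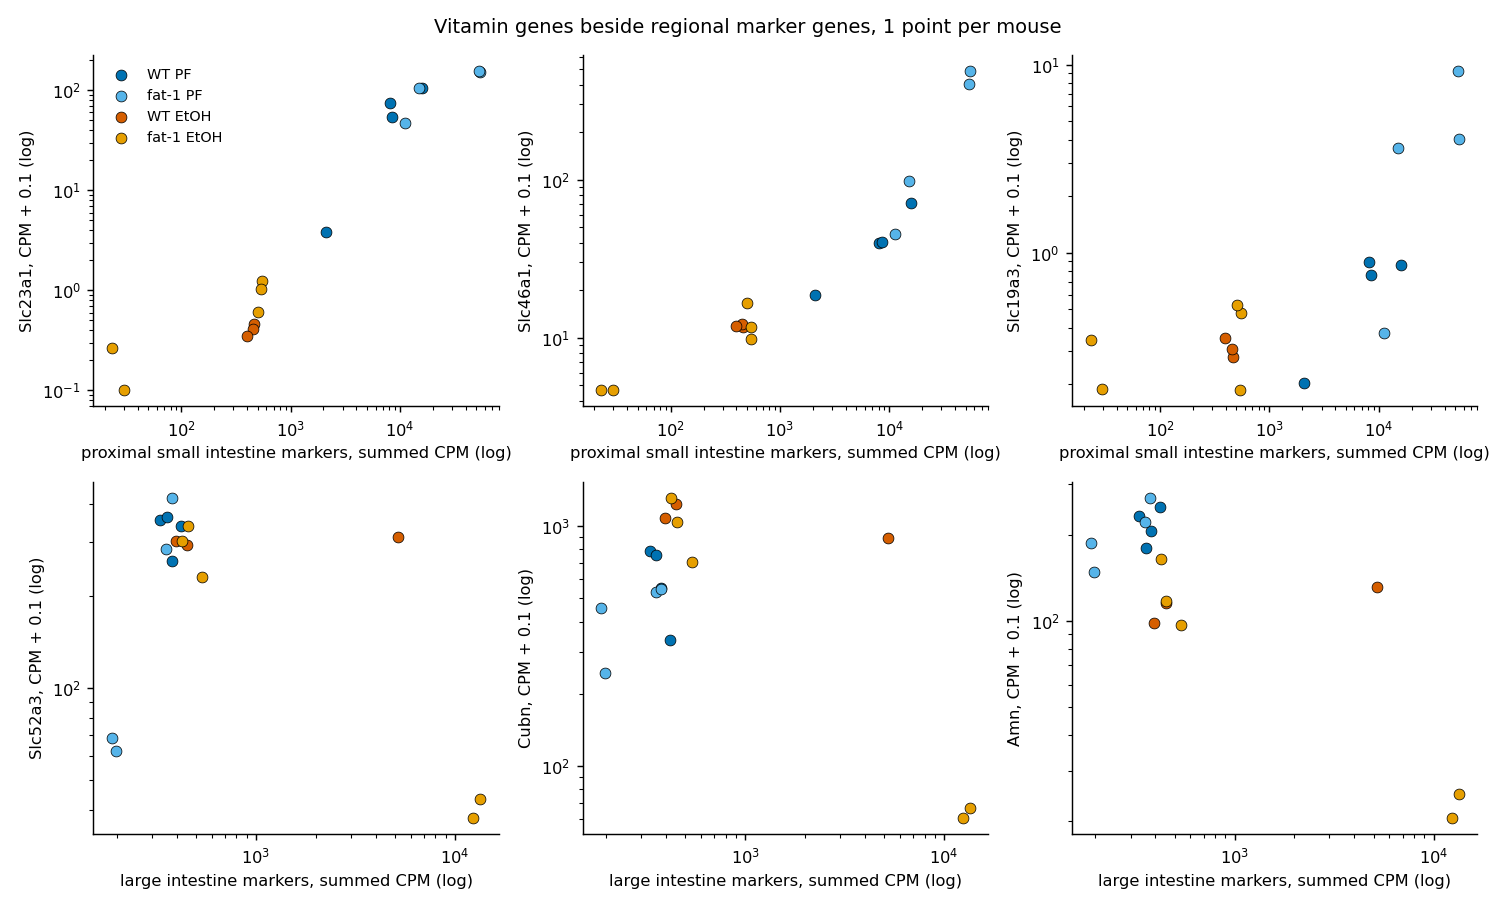
CPM + 0.1 of 6 of the 10 genes against the summed CPM of regional marker genes, both on log axes, with 1 point per mouse coloured by group. The top row sets *Slc23a1*, *Slc46a1* and *Slc19a3* against proximal small intestine markers, where EtOH mice lie at 546 CPM or less and PF mice at 2090 CPM or more, and the bottom row sets *Slc52a3*, *Cubn* and *Amn* against large intestine markers.

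Between genotypes, none of the 10 genes was a DEG in the fit of all libraries. In PF mice 0 of 10 were called by edgeR (0.0% of all genes) and by voom, DESeq2 called *Slc46a1*, and 4 of 10 had an unadjusted p under 0.05 by edgeR (12.7% of all genes), each higher in *fat-1* mice. *Slc19a3*, which passed the filter only through *fat-1* PF mice, could be tested here only by being higher in them. These 4 were *Slc46a1* at 2.61 (SE 0.65, adjusted p = 0.187), *Slc19a3* at 2.85 (SE 0.72, adjusted p = 0.187), *Slc19a2* at 0.62 (SE 0.21, adjusted p = 0.227) and *Slc19a1* at 0.63 (SE 0.24, adjusted p = 0.278). Only the groups of *Slc19a2* did not overlap (6.87% of all genes), and 15.1 CPM in the highest WT PF mouse stood against 15.3 CPM in the lowest *fat-1* PF mouse. *Fat-1* PF 3 was the lowest mouse of its group for *Slc46a1*, *Slc19a1* and *Slc19a3*, so leaving it out raises the difference by construction. Without it these 3 were called (0.826% of all genes), *Slc46a1* at 2.95 and *Slc19a1* at 0.85, and for *Slc19a3* the filter also sets the direction. When *fat-1* PF 2 and 4 were left out, *Slc46a1* and *Slc19a1* stood at 0.75 and 0.07 and neither was called (adjusted p = 1.0 for both). The remaining 6 genes ranged from −0.66 for *Slc52a3* to 0.95 for *Slc23a1*.

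In EtOH mice 0 of 10 genes were called by edgeR (0.00724% of all genes), voom or DESeq2, 0 had an unadjusted p under 0.05 (4.86% of all genes), and no gene had groups that did not overlap (2.45% of all genes). The log2 fold changes ranged from −0.75 (SE 0.75) for *Cubn* to 0.80 (SE 1.52) for *Slc23a1*. The response to EtOH differed between genotypes for 0 of 10 genes after adjustment (0.0% of all genes) and for 3 of 10 at an unadjusted p under 0.05 (8.26% of all genes): *Slc46a1*, *Slc19a1* and *Slc19a2*, the last at −0.68 (SE 0.30, adjusted p = 0.595). Being a DEG in 1 genotype and not in the other is therefore not shown to be a difference between genotypes.

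A list of 67 other genes of vitamin handling, of which 58 were tested, gave 8 DEGs that rose and 10 that fell with EtOH in *fat-1* mice (18.7% of all genes were called higher and 18.8% lower). In WT mice none was a DEG by edgeR, 2 had p under 0.05 (among them *Rbp2* at −2.95, adjusted p = 0.187), DESeq2 called 1 and voom 7. The largest change was in *Rbp2*, the retinol-binding protein of absorptive enterocytes, at −5.61 (SE 0.78, adjusted p = 3.2e-04) in *fat-1* mice, with 1402 to 8481 CPM in PF and 20.4 to 151 CPM in EtOH mice. *Alpi*, the brush border phosphatase that frees vitamin B6 from its phosphate, fell by 1.93 (SE 0.50, adjusted p = 0.00886), and *Pdxk*, which traps vitamin B6 as its phosphate, fell by 0.80. The folate receptor *Folr2* rose by 2.07 (SE 0.55, adjusted p = 0.0101), from at most 0.702 CPM in *fat-1* PF mice to 0.765 to 2.74 CPM in *fat-1* EtOH mice. At this level no *fat-1* PF mouse helped it pass the filter on low counts. The filter may thus have favoured a rise, and the fold change of *Folr2* is a description.

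Among genes of vitamin C handling, the glucose transporter *Slc2a1*, which also carries dehydroascorbate, rose by 2.20 (SE 0.62, adjusted p = 0.0139), with 14.5 to 19.4 CPM in PF and a median of 29.7 and a highest value of 179 CPM in EtOH mice. It was not called without *fat-1* EtOH 3 and 4, without *fat-1* PF 2 and 4 or under voom, and ranged from 0.43 to 2.37 over 12 alternatives. The dehydroascorbate reductase *Gsto1* fell by 0.90 (SE 0.18, adjusted p = 0.00183). *Slc23a2*, which encodes SVCT2, the other vitamin C carrier, was present in every group (mean 47.2 to 91.2 CPM) and was not a DEG in either genotype. For thiamine, *Slc44a4*, a carrier of the thiamine diphosphate made by colonic microbes, rose by 1.01, but was not called without *fat-1* EtOH 3 and 4, without *fat-1* PF 2 and 4 or in the *fat-1* groups alone (0.38 to 1.399 over 12 alternatives). For riboflavin, the basolateral carrier *Slc52a2* fell by 0.56 and *Flad1*, which makes FAD, by 0.31, each called under 5 of 12 alternatives. For biotin and pantothenate, *Hlcs*, which attaches biotin to carboxylases, rose by 0.83, *Pank4* rose by 0.33 and *Coasy*, an enzyme of coenzyme A synthesis, fell by 0.51. For cobalamin, the endocytic adaptor *Dab2* rose by 0.87, the efflux pump *Abcc1* rose by 1.26, and the lysosomal exporter subunit *Lmbrd1* and the chaperone *Mmadhc* fell by 0.29 and 0.25. Upper-quartile scaling raised the median of all genes in this comparison from 0.05 to 0.20 and gave 13 higher and 5 lower calls in place of 8 and 10, and without *fat-1* PF 2 and 4 there were 2 higher and 3 lower. *Rbp2* was called in the same direction under each of 12 alternatives, *Gsto1* and *Dab2* under 11, *Alpi*, *Abcc1*, *Hlcs* and *Pank4* under 9, *Coasy* and *Lmbrd1* under 8, *Pdxk* under 6 and *Mmadhc* under 2. *Folr2* was called under 8 of the 11 in which it was tested.

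**Figure D5:**
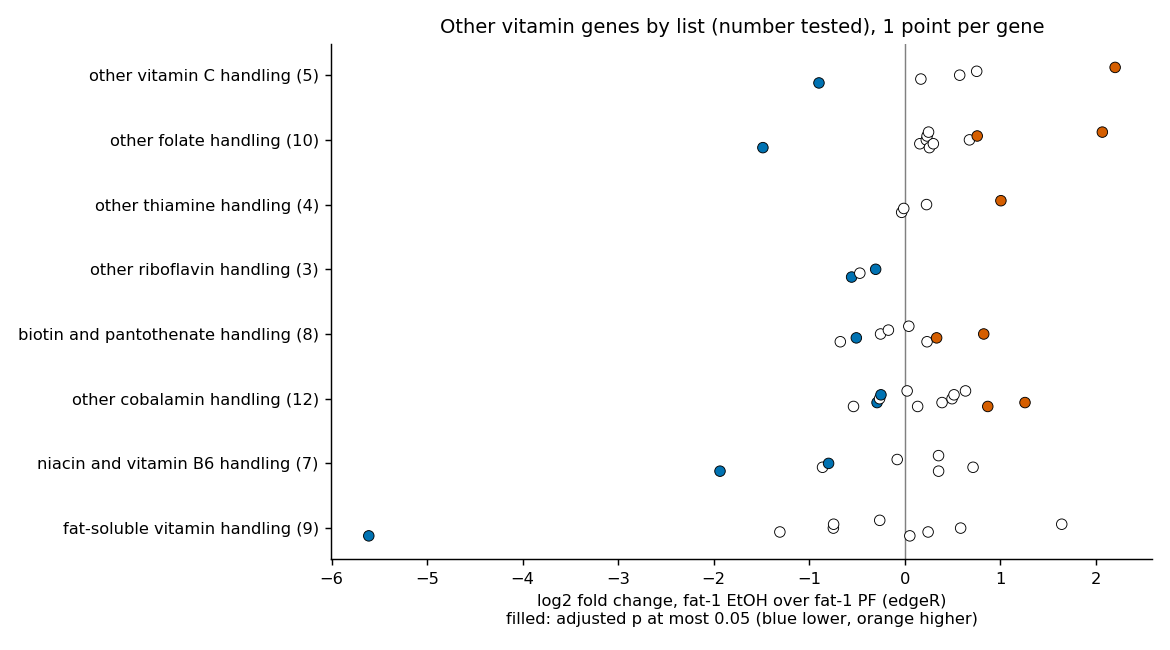
Log2 fold change of *fat-1* EtOH over *fat-1* PF for the 58 other vitamin genes tested, by list, with 1 point per gene, filled orange when called higher and blue when called lower at an adjusted p of 0.05 or less. *Rbp2* lies farthest from 0, at −5.61, and 8 genes were called higher and 10 lower.

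For each gene, the tested genes whose levels followed it most closely over the 16 mice were listed, as a description. For *Slc23a1* these were *Tbc1d10a*, *Mtmr4* and *Slc38a10* (Spearman's rho 0.988, 0.988 and 0.985), and for *Slc46a1* *Cyp2b10*, *Klhdc3* and *Larp1b* (0.988, 0.985 and 0.982), of which *Cyp2b10* is among the proximal markers. For *Cubn* they were *Slc13a1*, *Malrd1* and *Grem1* (0.982, 0.974 and 0.965), for *Amn* *Dnpep*, *2210016F16Rik* and *Ostf1* (0.982, 0.979 and 0.979), and for *Tcn2* *Spint1*, *Gtf2b* and *Btd* (0.982, 0.959 and 0.947), the last of which encodes biotinidase. *Slc52a3* was followed most closely by *Pdlim2* (0.941), *Slc5a6* by *Tkt* (0.921), *Slc19a3* by *Pdzd11* (0.924), *Slc19a1* by *Dazap1* (0.9) and *Slc19a2* by *Slc35e3* (0.885). Within the 10 genes, *Amn* and *Tcn2* were closest after the vitamin C and folate pair (0.874), and *Cubn* and *Amn* were not related in rank (−0.02).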

How the data were processed

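Per the labels and methods, the authors aligned reads with tophat2 to mm10, guided by Ensembl transcripts, and deposited unnormalized htseq read counts for each gene. The settings of this counting, strand use among them, are not given in the sources used here. Of 21965 genes, 26 are absent from GENCODE M21, the source of symbols, positions and exon lengths. The submitters' processing notes also name bcl2fastq, FastQC 0.10.1 and Cufflinks.

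The main fit used edgeR 4.0.16 in R 4.3.3 (filterByExpr, TMM, robust quasi-likelihood, 1 mean per group, Benjamini-Hochberg adjustment). The code was also run on simulated data, in which no mice of a group stood apart together. It was therefore not checked on groups split like *fat-1* PF and *fat-1* EtOH. Single genes were also compared by permuting mice (exact, log2(CPM + 0.5)), and likeness used log2 CPM with a prior count of 2. The 10 genes and all lists were chosen with earlier results of these data known. Genes of the vitamin lists were named when called, up to 3 per direction and list, and some of them are not reported here. Alternatives were DESeq2 1.42.0, limma 3.58.1 voom with quality weights, DESeq2 size factors, upper-quartile scaling, filters of at least 1 count in any library or 10 in every library, fits of the compared groups alone, a replicate block, and left-out libraries. Replicates are separate mice, and no libraries were duplicates. Same-numbered mice were not more alike (mean correlation of deviations −0.02 over 21 pairs, 0.01 over 74 others). Intervals and floors cover counting error only. Upstream sequences are from RefSeq (GRCm38.p6).

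Of other marker lists, in *fat-1* mice with EtOH 1 of 6 ileal bile acid genes was called higher, 1 of 9 epithelium markers higher and 2 lower, 1 of 6 macrophage markers higher and 1 of 5 adipocyte markers lower. None of the B-cell follicle, T cell, endothelium or red blood cell markers was called by edgeR there. Single mice were not even, however. *Fat-1* EtOH 5 held 580 CPM of B-cell follicle markers, where every other mouse held at most 114 CPM. It also held the highest sums of T cell (145 CPM), macrophage (253 CPM), endothelium (139 CPM) and adipocyte markers (619 CPM).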

Additional observations from a re-analysis of the deposited data

Results flagged for a closer look

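*Slc19a3* in WT PF 4 stood apart from the other 3 WT PF mice, at 0.104 CPM (1 read) against 0.666 to 0.792 CPM (6 or 7 reads). On the log2(CPM + 0.5) scale its gap to the nearest mouse was 0.865 of the range of the group, above Dixon's critical value for 4 samples. On the CPM scale the gap was 0.817 of the range, which is below that value. Of 30 groups of 4 or 5 mice tested, it was the only one flagged, and chance alone flags about 1 in 20 groups. A single flag among 30 groups is therefore no more than chance gives. The same mouse held the lowest *Slc23a1* and *Slc46a1* of the WT PF group (3.74 and 18.6 CPM) and the lowest sum of proximal markers (2090 CPM), and their relation was not tested.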

How the results depend on the processing

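The alternatives without *fat-1* PF 2 and 4, without *fat-1* EtOH 3 and 4, and without all 4 were chosen after seeing the data. Of the 10 genes, edgeR called 1 in WT mice with EtOH. The count was 2 under voom (*Slc46a1* and *Amn*, where 20.7% of all genes were called), 2 without *fat-1* EtOH 3 and 4 (2.01%), 3 without all 4 (5.68%), and 0 under both other filters, under the replicate block and without WT EtOH 2 and *fat-1* EtOH 3 and 4. In the WT groups alone it was again 1 (8.32% of all genes), but *Amn* and not *Slc23a1* (adjusted p = 0.0539). It ranged from 0 to 1 when single mice were left out (at most 0.479% of all genes). In *fat-1* mice the count of 5 became 3 of 8 tested with at least 10 counts in every library, which drops *Slc23a1* and *Slc19a3* (38.7% of all genes called). It was 3 of 9 tested in the fit of the compared groups alone (23.2%) and without all 4 libraries (12.1%). Without *fat-1* PF 2 and 4 it was 2 of 9 (13.9%). Leaving out single mice gave 3 to 6 (28.5% to 39.4% of all genes), with 3 without *fat-1* PF 2 or 4. The mean of both genotypes gave 3 with at least 10 counts in every library (37.4% of all genes) and 2 without *fat-1* PF 2 and 4 (23.9%). It gave 3 to 6 without single mice (26.9% to 38.1%). Between genotypes on PF, DESeq2 called 1 (*Slc46a1*, 1.37% of all genes), and fits without single mice 0 to 3 (at most 0.826%), with *Slc19a3* among the 3. The cause of these shifts was not tested.

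Fold changes near 0 turned. *Slc52a3* with EtOH in *fat-1* mice was 0.87 under voom, 0.50 without WT EtOH 2 and *fat-1* EtOH 3 and 4, 0.50 without *fat-1* EtOH 3 and 4, and −0.43 to 0.47 without single mice. Between genotypes on PF, *Tcn2* was −0.0082 under voom, −0.0272 under upper-quartile scaling and −0.0382 to 0.108 without single mice. *Amn* was −0.235 to 0.0461 without single mice. Without *fat-1* PF 2 and 4, and without all 4, *Amn* was 0.164 and 0.160, *Slc52a3* 0.0862 and 0.0820, and *Slc5a6* 0.0833 and 0.0798. *Amn* with EtOH in *fat-1* mice missed the threshold under voom (−0.96, adjusted p = 0.0767) and upper-quartile scaling (−1.16, adjusted p = 0.0556). Of 448 fold changes under settings other than single left-out mice, 411 kept direction and call, 17 lost and 9 gained the call, and 11 turned.

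Replicate numbers were not a pairing. With the replicate block 0 of the 10 genes were called in WT mice (0.13% of all genes), where *Slc23a1* was at −7.58 (adjusted p = 0.0507), against 5 in *fat-1* mice (34.4%).

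Over all genes with EtOH, edgeR called 11 in WT mice, DESeq2 257, voom 2853 and the compared groups alone 1103, and 781 were called without the 4 libraries. In *fat-1* mice 5170 were called (2578 higher), 5659 (3906 higher) under upper-quartile scaling, 3086 in the compared groups alone, and 1965 without *fat-1* PF 2 and 4. Depth limits *Slc19a3* outside *fat-1* PF mice (fewer than 10 reads in each library) and *Slc23a1* with EtOH (at most 12 reads).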
